A study of Mus musculus with 4 samples.

Results

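Lyz2, Ms4a7, Cybb, Stab1 and Mrc1 are 5 genes known for their expression in macrophages, the phagocytes that patrol tissue borders and that enter or expand in injured tissue. They were chosen by symbol from the deposited gene table with their difference between the genotypes already in view, so all values of that difference below are a description and carry no test. A row was found for 4 of the 5 among 14572 gene entries, and Mrc1, the mannose receptor CD206, is not analysed here. The libraries came from whole retinas of mice on the C57BL/6 strain, taken 5 days after 1 h of acute ocular hypertension (AOH), a raised eye pressure that injures the retina and serves as a glaucoma model. There were 2 wild-type libraries (P1041 and P1033) and 2 libraries taken as PLSCR1-TG, a mouse labelled as transgenic for the phospholipid scramblase PLSCR1 (TP-1036 and TP-1040). Every library carried the injury, and no uninjured retina is analysed here. Which promoter drives the transgene, how many founder lines were used and how many animals stand behind a library is not stated by the labels, and the labels give an embryonic age that is at odds with an eye injury followed by days of survival.

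Macrophages and microglia share a receptor for colony-stimulating factor (Csf1r) and the transcription factor PU.1 (Spi1). Microglia are the resident macrophages of the neural retina, whereas macrophages of vessels, the ciliary body and the choroid, and cells derived from blood monocytes, are known for higher Lyz2 and Ms4a7 than resting microglia. Lyz2 is also a classic gene of neutrophils, and Stab1 of sinusoidal endothelium, so none of the 4 marks a single cell type. In RNA from whole retina, more cells of a type and more RNA per cell cannot be told apart.

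Total estimated reads ran from 28866589 to 41215649 per library. Rod and cone genes were abundant in all 4 libraries, with a summed level of 10 photoreceptor genes between 56400 and 71100 CPM (a gene's reads relative to the scaled size of its library), so the defining genes of the labelled tissue were present. Plscr1 itself stood at 7.95 and 8.27 CPM in wild type against 9.83 and 8.03 CPM, so the groups overlapped and the table does not check the transgenic label. The TP-1036 and TP-1040 libraries are called transgenic-labelled throughout, because only the word case in their column names ties them to that group. They stood apart from each other in other ways, for 4 lens crystallin genes summed to 329 CPM in TP-1036 against 52.5 in TP-1040 and 41.3 and 36.8 in wild type. 

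The 250 bases before each start site are shown for the 4 measured genes, since their levels differed together and because promoters of this class are known to be bound by PU.1 and by factors of the AP-1, C/EBP and interferon pathways. They come from RefSeq (GRCm38.p6), run 5′ to 3′ along the gene's strand and end at the base before a start site given in that table. For Cybb this start lies inside the gene's RefSeq span, which extends upstream of it (to base 9487766 of the X chromosome), and for Stab1 the span reaches base 31168651, just inside the window. Capitals mark matches on either strand to 4 short motifs, which are the PU box GAGGAA, the AP-1 site TGANTCA, the C/EBP site TTGCNNAA and the interferon-stimulated response element. Ms4a7 has 2 start sites in the table and both are given.
Lyz2, chr10:117282273-117282522, minus strand: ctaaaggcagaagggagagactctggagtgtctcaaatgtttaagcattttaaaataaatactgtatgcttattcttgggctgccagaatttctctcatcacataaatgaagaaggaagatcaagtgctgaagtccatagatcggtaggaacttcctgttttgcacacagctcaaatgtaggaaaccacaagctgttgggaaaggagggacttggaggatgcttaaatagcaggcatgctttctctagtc
Ms4a7, chr19:11336147-11336396, minus strand: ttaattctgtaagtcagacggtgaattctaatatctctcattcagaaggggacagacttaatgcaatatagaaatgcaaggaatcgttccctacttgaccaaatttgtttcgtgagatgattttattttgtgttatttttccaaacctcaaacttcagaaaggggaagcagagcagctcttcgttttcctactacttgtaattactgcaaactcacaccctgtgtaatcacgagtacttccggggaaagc
Ms4a7, chr19:11334696-11334945, minus strand: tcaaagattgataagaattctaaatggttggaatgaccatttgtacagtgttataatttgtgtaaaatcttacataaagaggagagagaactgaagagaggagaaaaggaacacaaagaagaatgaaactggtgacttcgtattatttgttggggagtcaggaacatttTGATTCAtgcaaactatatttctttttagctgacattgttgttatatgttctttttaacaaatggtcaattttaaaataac
Cybb, chrX:9469325-9469574, minus strand: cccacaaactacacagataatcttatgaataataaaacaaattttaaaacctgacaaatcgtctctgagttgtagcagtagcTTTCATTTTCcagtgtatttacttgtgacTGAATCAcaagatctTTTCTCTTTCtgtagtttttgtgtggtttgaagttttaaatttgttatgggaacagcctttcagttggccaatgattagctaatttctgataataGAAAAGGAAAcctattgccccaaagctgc
Stab1, chr14:31168642-31168891, minus strand: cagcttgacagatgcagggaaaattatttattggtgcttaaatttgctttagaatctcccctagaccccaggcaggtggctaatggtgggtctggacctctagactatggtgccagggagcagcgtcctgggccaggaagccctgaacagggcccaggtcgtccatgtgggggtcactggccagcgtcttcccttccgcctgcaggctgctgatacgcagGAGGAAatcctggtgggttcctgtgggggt

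The motifs were not shared by the 4 genes. Stab1 held 1 PU box, starting 30 bases before the start site, a motif found in 23.3% of 32851 RefSeq windows of this length. Cybb held 3 matches to the interferon-stimulated response element, a motif found in 2.98% of all windows, and 1 AP-1 site, found in 6.75%. One of the Ms4a7 windows held an AP-1 site and the other held none of the motifs. The Lyz2 window held none of these letters, and the C/EBP site, present in 9.56% of all windows, was in none of the 5. A match is a string of letters, and none of these data measure binding.

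Lyz2, Ms4a7, Cybb and Stab1 each stood higher in both transgenic-labelled libraries than in either wild-type library, by 2.35-fold to 9.15-fold in mean CPM. All 4 were at least 2-fold higher without overlap between the groups, which held for 0.926% of all 14572 entries. That contrast chose the genes, so nothing is read from their share. The 2 transgenic-labelled libraries lay close together for each gene, with a ratio of TP-1036 to TP-1040 between 0.965 and 1.09. Choosing genes by that contrast can favour such closeness.

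**Figure D1:**
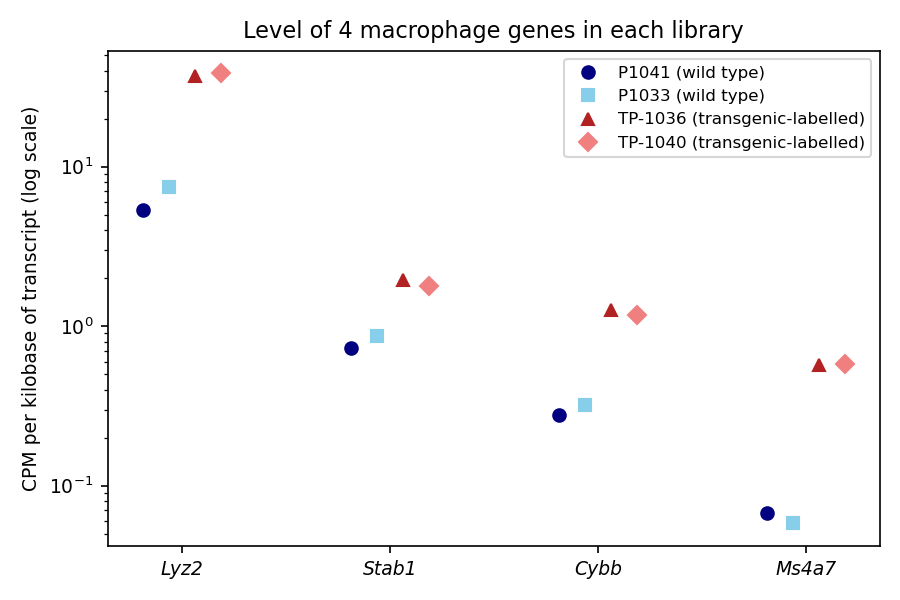
Level of Lyz2, Stab1, Cybb and Ms4a7 in each library, as CPM per kilobase of the longest transcript on a log axis. Each point is 1 library. For every gene both transgenic-labelled points lie above both wild-type points, and the order Lyz2, Stab1, Cybb, Ms4a7 is the same in all 4 libraries.

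Lyz2 encodes the lysozyme of macrophages and neutrophils, an enzyme that cleaves bacterial cell walls, and lies on chromosome 10 (117277541 to 117282272, GRCm38.p6). It had 204 and 329 reads in P1041 and P1033, and 1843 and 2074 in TP-1036 and TP-1040. This corresponds to 7.08 and 9.86 CPM for the wild-type libraries against 48.8 and 50.6 CPM. Both wild-type values are low and both others high, and the lowest of the higher group was 4.95 times the highest of the lower. The means were 8.47 ± 1.97 and 49.7 ± 1.25 CPM (SD, n = 2 libraries per group), a 5.87-fold difference. On the log2 scale the difference was 2.55 ± 0.18 (SE of the edgeR fit). The neighbouring gene Lyz1 codes for a closely related lysozyme, and 15.4% of the 50-base windows of the longest Lyz2 transcript also occur in Lyz1 transcripts, so some Lyz2 reads could stem from Lyz1, which is not analysed here. For Cybb and Stab1 0 such windows occurred in another gene, and for Ms4a7 0.395% did.

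Ms4a7 encodes a membrane protein with 4 transmembrane segments from the MS4A family, known for expression in border-associated and infiltrating macrophages, and lies on chromosome 19 (11321039 to 11336146). It was the least abundant of the 4, with 7 reads in each wild-type library and 78 and 85 reads in TP-1036 and TP-1040. A count of 7 has an exact Poisson interval of 2.81 to 14.4 reads at 95%, which covers counting error only. The levels were 0.243 and 0.210 CPM in wild type against 2.07 and 2.07 CPM, so both wild-type libraries were low and both others high. The table holds no entry with under 76.9 reads over the 4 libraries, and Ms4a7 passed that floor through the higher group, which gave 163 of its reads against 14. The fold was the largest of the 4, at 9.15 (0.226 ± 0.0234 against 2.07 ± 0.00486 CPM, SD, n = 2), but also the least certain. From the summed reads alone the ratio was 9.20 with a counting interval of 5.33 to 17.2. The log2 difference was 3.18 ± 0.36 (SE) in edgeR and 1.32 on the log2(CPM + 1) scale, which understates the change of low genes.

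Cybb encodes gp91phox or NOX2, the catalytic subunit of the phagocyte NADPH oxidase that makes superoxide, and lies on the X chromosome (9435252 to 9487766). It had 38 and 51 reads in P1041 and P1033 against 227 and 228 in the other group. The levels were 1.32 and 1.53 CPM against 6.02 and 5.56 CPM, again low in both wild-type libraries and high in both others. The fold was 4.07 (1.42 ± 0.148 against 5.79 ± 0.320 CPM, SD, n = 2), with a log2 difference of 2.02 ± 0.23 (SE).

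Stab1 encodes stabilin-1, a scavenger receptor of tissue macrophages and sinusoidal endothelium that takes up modified lipoproteins and dying cells, and lies on chromosome 14 (31139017 to 31168651). Its reads numbered 169 and 230 against 592 and 588 in the other group, or 5.86 and 6.89 CPM against 15.7 and 14.3 CPM. The groups did not overlap, and the difference was the smallest of the 4, at 2.35-fold (6.38 ± 0.728 against 15.0 ± 0.949 CPM, SD, n = 2). The log2 difference was 1.23 ± 0.16 (SE).

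Per kilobase of transcript, Lyz2 was the most abundant of the 4 in each library, followed by Stab1, Cybb and Ms4a7. The mean levels per kilobase in wild type were 6.44 ± 1.49, 0.797 ± 0.0910, 0.300 ± 0.0312 and 0.0628 ± 0.00649 CPM for these genes in that order, and 37.8 ± 0.947, 1.88 ± 0.119, 1.22 ± 0.0674 and 0.574 ± 0.00135 CPM in the transgenic-labelled libraries (SD, n = 2). Within each group the libraries of neighbouring genes in this order did not overlap. The order was kept while the distances changed. Stab1 stood at 2.64 and 2.68 times the level of Cybb per kilobase in P1041 and P1033, but at 1.55 and 1.53 times in TP-1036 and TP-1040. Lyz2 stood at 7.34 and 8.69 times the level of Stab1 per kilobase in wild type, but at 18.9 and 21.4 times in the other group.

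Genes shared by macrophages and microglia were also higher, by less than most of the 4. The list of 20 pan-macrophage and microglia genes had 20 measured members, all with a higher mean, and a median log2 difference of 1.06 against 0.00 over all entries. Their groups lay apart, transgenic-labelled higher, in 19 of the 20, where 24.1% of all entries did so. The lists here and below were chosen with earlier results of these data known, so such counts are a description. Mpeg1, the pore-forming perforin-2 of macrophages, stood at 24.7 and 30.8 CPM in wild type against 70.6 and 57.4 CPM. Laptm5, a lysosomal membrane protein of blood cells, stood at 16.0 and 15.9 against 45.5 and 29.5 CPM, and Fcer1g, the common gamma chain of Fc receptors, at 4.62 and 3.33 against 11.2 and 7.59 CPM. Ctss, the lysosomal protease cathepsin S, was at 26.8 and 29.6 against 70.3 and 45.9 CPM, and Tyrobp, an adaptor of myeloid receptors, at 4.34 and 4.32 against 10.2 and 7.61 CPM. In each of these genes TP-1036 was the highest library. The log2 differences of the list reached 1.24 at most, just above that of Stab1 and below those of Cybb, Lyz2 and Ms4a7.

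Genes of homeostatic microglia had a smaller median log2 difference, 0.52, and all 13 measured of 14 had a higher mean. Their groups lay apart, transgenic-labelled higher, in 11 of the 13 (24.1% of all entries). At least 2-fold higher without overlap were 1 of these 13 and 14 of the 20 pan-macrophage genes (0.926% of all entries). The 1 microglial gene was Fcrls, an Fc receptor-like gene of microglia, at 6.21 and 6.59 against 18.3 and 11.6 CPM. The fractalkine receptor Cx3cr1 was at 16.3 and 16.8 against 34.0 and 21.2 CPM. P2ry12, the purinergic receptor of ramified microglia, was at 5.62 and 5.66 against 9.06 and 6.15 CPM, and Tmem119 at 2.95 and 2.91 against 5.17 and 3.32 CPM.

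**Figure D2:**
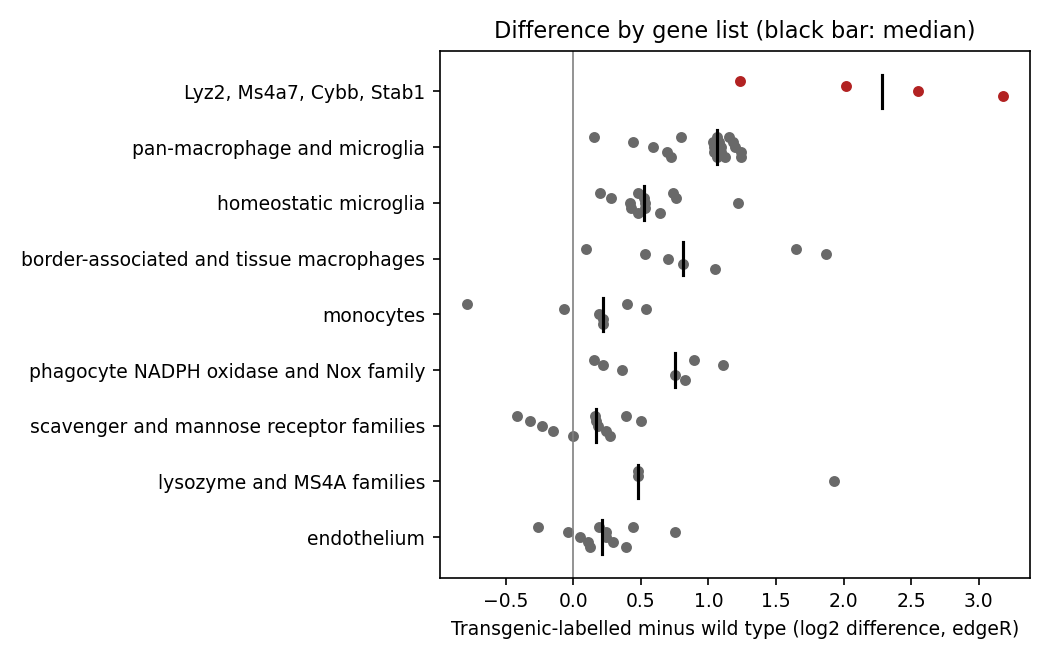
Log2 difference between transgenic-labelled and wild-type libraries (edgeR) for each measured gene of 8 lists and for Lyz2, Ms4a7, Cybb and Stab1, with 1 point per gene and a black bar at each median. The 4 genes run from 1.23 to 3.18, while the pan-macrophage list ends at 1.24 and the homeostatic microglia list has its median at 0.52.

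Relative to Csf1r, the receptor that both microglia and macrophages need, Lyz2, Ms4a7 and Cybb were higher in both transgenic-labelled libraries. Csf1r stood at 32.3 and 40.5 CPM in wild type, 75.3 CPM in TP-1036 but 44.8 CPM in TP-1040. The ratio of Lyz2 to Csf1r in CPM was 0.219 and 0.243 in P1041 and P1033, against 0.648 and 1.13 in TP-1036 and TP-1040. The ratio of Cybb to Csf1r was 0.0409 and 0.0377 for the wild-type libraries against 0.0799 and 0.124, and that of Ms4a7 was 0.00753 and 0.00518 against 0.0274 and 0.0463. For Stab1 the ratios lay nearer together, at 0.182 and 0.170 against 0.208 and 0.320. Other myeloid genes went either way relative to Csf1r, so a higher ratio was not particular to the 4 genes. The ratio of Mpeg1 was 0.767 and 0.761 in wild type against 0.937 and 1.28, and that of the microglial gene Fcrls was 0.192 and 0.163 against 0.243 and 0.259. That of P2ry12 was 0.174 and 0.140 in wild type against 0.120 and 0.137. That of Cx3cr1 was 0.504 and 0.414 against 0.451 and 0.473, where the groups overlapped. These ratios depend on Csf1r, which in TP-1040 lay close to P1033. Relative to Ptprc, the pan-leukocyte phosphatase CD45, the ratio of Lyz2 was 4.86 and 3.29 against 10.4 and 10.5, while that of Stab1 overlapped, at 4.02 and 2.30 against 3.34 and 2.98.

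**Figure D3:**
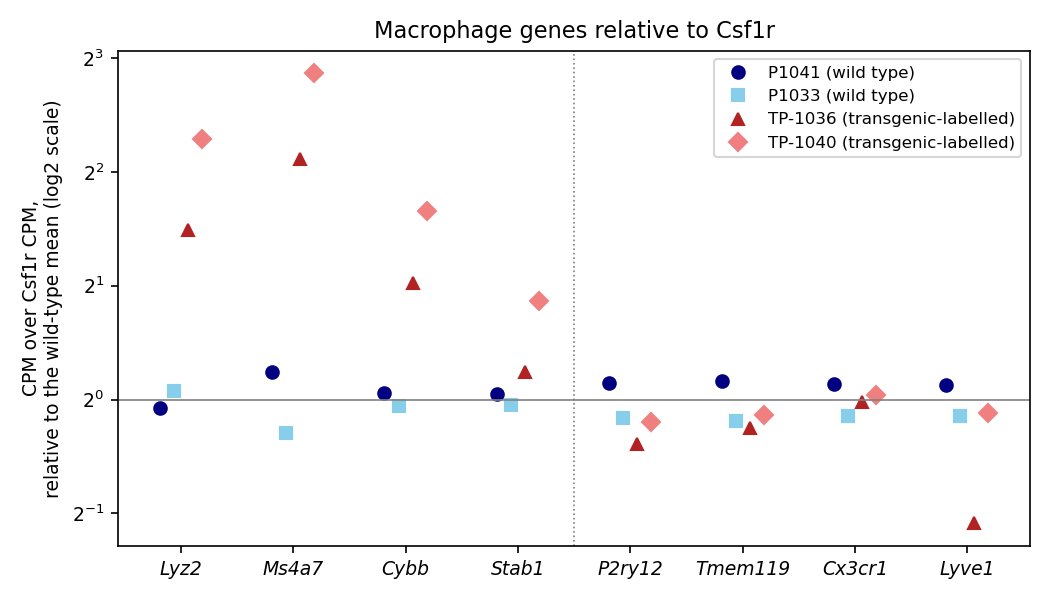
Ratio of each gene's CPM to the CPM of Csf1r in the same library, divided by the mean of the wild-type ratios, on a log2 axis. Each point is 1 library, and the dotted line parts Lyz2, Ms4a7, Cybb and Stab1 from microglial genes and Lyve1. Transgenic-labelled points lie above the wild-type points for the first 4 genes, and TP-1040 lies above TP-1036 in each of them. Mpeg1 and Fcrls are not drawn, and their ratios were also higher in both transgenic-labelled libraries.

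The transgenic-labelled libraries were unlike each other in most microglial genes but alike in Lyz2, Ms4a7, Cybb and Stab1. TP-1036 was above TP-1040 in 19 of 20 pan-macrophage genes and 13 of 13 homeostatic microglia genes. The medians were 0.58 and 0.56 on the log2 scale. TP-1036 was also above in 2 of the 4 members, and in 7341 of all 14572 entries, with a median of 0.00 over all entries. Likeness was not particular to the 4 genes. Ptprc was at 4.69 CPM in TP-1036 and 4.81 CPM in TP-1040. Of the border-associated and tissue macrophage genes 4 of 7 were higher in TP-1036, with a median of 0.20. The summed CPM of the pan-macrophage list was 165 and 191 for the wild-type libraries, 402 for TP-1036 and 282 for TP-1040. The summed CPM of Lyz2, Ms4a7, Cybb and Stab1 was 14.5 and 18.5 for wild type but 72.6 for both TP-1036 and TP-1040, most of it from Lyz2. The 4 genes were chosen with the difference between the groups in view, which can favour genes whose libraries of a group lie close. Nothing is therefore read from their likeness, and no test was made of this contrast between 2 single libraries.

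**Figure D4:**
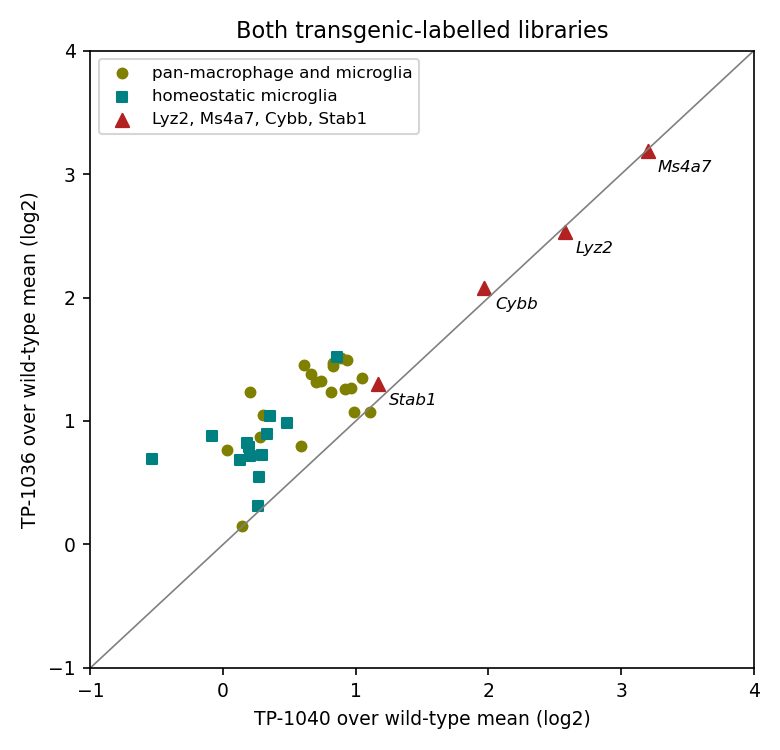
Log2 ratio of each transgenic-labelled library to the wild-type mean, TP-1040 on the x axis and TP-1036 on the y axis, with 1 point per gene and a line where both are equal. Lyz2, Ms4a7, Cybb and Stab1 lie close to the line, at 2.58, 3.20, 1.97 and 1.17 for TP-1040 and 2.53, 3.19, 2.08 and 1.30 for TP-1036, while most microglial genes lie above it.

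The other subunits of the NADPH oxidase, which Cybb needs to be active, differed less than Cybb and mostly in TP-1036. Of the oxidase and Nox family list 7 of 15 genes were measured, 7 with a higher mean and a median log2 difference of 0.75. Ncf1, the p47phox organiser, was at 4.44 and 3.78 CPM in wild type against 8.98 and 5.59 CPM, and Cyba, the p22phox partner of NOX2 in the membrane, at 3.99 and 3.06 against 7.55 and 4.27 CPM. Rac2, the blood-cell GTPase of the complex, was at 1.80 and 1.77 against 4.51 and 2.15 CPM, whereas the widely expressed Rac1 was at 120 and 111 against 135 and 121 CPM. In all 4 of these genes TP-1036 was the highest library, and TP-1040 was near the wild-type libraries in Cyba and Rac2. The list's median was 0.27 without TP-1036.

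Of the scavenger and mannose receptor families 12 of 16 listed genes were measured, and their values lay near those of all entries. Their median log2 difference was 0.17, with 7 higher and 5 lower means. At least 2-fold higher without overlap were 0 of the 12, where 0.926% of all entries were, so this count says little. Stab2, the paralogue of Stab1, was at 1.94 and 1.98 CPM in wild type against 1.19 and 1.73 CPM. Mrc2, a collagen receptor related to the mannose receptor, was at 1.35 and 3.66 against 4.43 and 2.73 CPM, with overlapping groups, and Scarb2, a lysosomal membrane protein, at 187 and 179 against 186 and 180 CPM.

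Of 17 other genes listed for the lysozyme and MS4A families 3 were measured, and Ms4a6c stood in another list. Ms4a6c, a macrophage member of the same family, was at 0.625 and 0.929 CPM in wild type against 3.15 and 2.59 CPM, and Ms4a6d at 0.347 and 0.360 against 1.19 and 1.51 CPM. Ms4a6d had 10 and 12 reads in wild type and 45 and 62 in the other group, so it too passed the floor of the table through the group where it is high. Their log2 differences were 1.87 ± 0.32 and 1.93 ± 0.37 (SE, n = 2). Tmem176a and Tmem176b, more distant family members, had 12.3 and 24.4 CPM in P1041, 14.2 and 27.7 CPM in P1033, 22.9 and 43.7 CPM in TP-1036 and 14.2 and 29.2 CPM in TP-1040. Of these libraries TP-1036 stood highest in both genes, and TP-1040 lay near P1033.

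Of 24 genes of border-associated and tissue macrophages 7 were measured, all with a higher mean and with a median log2 difference of 0.81. Siglec1, the sialoadhesin of tissue macrophages, was at 0.937 and 1.14 CPM in wild type against 2.99 and 3.56 CPM. Apoe, a lipid carrier made by macrophages and by Müller glia, was at 1010 and 1240 against 2630 and 2040 CPM, and the transcription factor Maf at 24.2 and 30.7 against 42.3 and 36.9 CPM. Lyve1, a hyaluronan receptor of perivascular macrophages and of lymphatic vessels, had overlapping groups, at 11.0 and 11.5 against 11.1 and 12.9 CPM.

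Over the 15 lists with a measured gene, 0 of 125 genes passed a Benjamini-Hochberg adjusted p of 0.05 in edgeR's quasi-likelihood test across all entries. An unadjusted p under 0.05 was reached by 48 higher and 1 lower in that fit, where 5.26% of all entries were higher and 4.65% lower at this level, and limma called 0. DESeq2 called 16 higher and 1 lower, where it called 0.48% of all entries higher and 0.117% lower. Leaving out a library changed the edgeR count of listed genes to 6 (P1041 left out), 15 (P1033), 5 (TP-1036) or 63 (TP-1040), while the count over all entries became 21, 80, 37 or 4177. Over all 14572 entries 1 gene passed in edgeR, which is 0.00686% of them, and it was Lyz2, a gene chosen with this contrast in view, so nothing is read from the call. With total counts as the only scaling 0 passed. Entries called lower numbered 0 at that threshold, with 678 lower at an unadjusted p under 0.05, 17 lower in DESeq2 and 0 in limma.

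Markers of other blood cells give the following values beside these results. Of 14 neutrophil genes 2 were measured, Mmp9 at 15.2 and 13.5 CPM in wild type against 15.7 and 13.6, and Lcn2, which glia also make, at 10.1 and 17.3 against 24.6 and 9.22 CPM. The summed level of both was 25.3 to 30.9 CPM in wild type and 22.8 to 40.3 CPM in the other group. Of 13 lymphocyte genes 0 had an entry, and the table holds no entry with a total under 76.9 reads over the 4 libraries. Of 17 monocyte genes 7 were measured, 5 with a higher and 2 with a lower mean and a median log2 difference of 0.22. Their summed level was 229 and 269 CPM against 201 and 222, or 114 and 123 against 136 and 136 CPM without Itga4, a gene left out after its values were seen. Itga4, an integrin of blood cells that neurons also express, was at 114 and 146 against 65.0 and 85.5 CPM, and S100a4 was at 1.15 and 1.53 against 2.46 and 1.44 CPM. Red blood cell genes, a sign of blood in the tissue, summed to 92.2 and 104 CPM in wild type, 170 CPM in TP-1036 but 60.8 CPM in TP-1040. Endothelial genes, 12 of 12 measured, had a median log2 difference of 0.21, with Kdr at 274 and 298 against 308 and 343 CPM. The part of these cells in the levels of Lyz2 and Stab1 was not tested.

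Genes of tissues next to the retina also differed between libraries. Fibroblast genes, 7 of 8 measured, summed to 35.6 and 85.6 CPM in wild type against 109 and 76.6 CPM. Genes of pigment epithelium and melanocytes, 9 of 10 measured, summed to 379 in both wild-type libraries and to 608 and 427 CPM, most of it from Rlbp1, which Müller glia also express, at 337 and 309 against 494 and 357 CPM. Of the 9, 5 had a higher mean, and in all 5 the groups lay apart (24.1% of all entries). Ttr was at 11.1 and 14.7 against 41.7 and 28.2 CPM. Rpe65 was at 2.05 and 3.06 against 6.20 and 5.42 CPM, and Rgr at 10.8 and 14.6 against 31.2 and 22.3 CPM. Of the same list, Tyrp1, Pmel, Dct and Mlana had lower means, with overlapping groups. The part of these tissues in the levels of the 4 genes was not tested. Without TP-1036, the log2 differences of Lyz2, Ms4a7, Cybb and Stab1 were 2.58, 3.19, 1.96 and 1.17. That library had the highest crystallin, fibroblast and pigment epithelium sums. TP-1040 also stood above both wild-type libraries in Ttr, Rpe65 and Rgr. Leaving out TP-1036 therefore does not remove the difference in Ttr, Rpe65 and Rgr. The median log2 difference of their whole list was 0.40 with all libraries and 0.15 without TP-1036. Leaving out that library cannot tell what part neighbouring tissue had.

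Ligands that feed or attract macrophages had smaller differences than the 4 genes. Of 14 listed, 7 were measured, with a median log2 difference of 0.54. Csf1, the growth factor of Csf1r, was at 8.81 and 8.87 CPM in wild type against 13.1 and 13.3 CPM, Spp1 (osteopontin) at 13.9 and 10.7 against 18.2 and 21.2 CPM, and the chemokine Cxcl16 at 16.2 and 15.8 against 24.9 and 21.6 CPM. Cx3cl1, the neuronal ligand of Cx3cr1, was at 77.8 and 69.8 against 67.9 and 71.2 CPM, with overlapping groups.

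Outside the 4 genes themselves, the entries of mean CPM at least 1 most like each gene across the 4 libraries were named. The measure was the smallest Euclidean distance between centred log2 CPM profiles, and entries with clone or model names were skipped. For Lyz2 these were Cd22, a sialic acid receptor, at a distance of 0.207, the serpin gene Serpine3 at 0.210 and Anpep, an aminopeptidase, at 0.550. For Ms4a7 these 3 entries were again nearest outside the 4 genes, at 0.743, 0.420 and 0.859 in the same order, while Lyz2 itself was at 0.573. For Cybb they were the interferon-inducible Ifi207 at 0.299, Ms4a6c at 0.303 and Wdfy4 at 0.357. For Stab1 they were Oas1a, an antiviral enzyme, at 0.0421, Fyb, an adaptor of blood cells, at 0.102, and Arhgap25 at 0.115. Cd22 had 9 and 16 reads in wild type against 81 and 96, and Anpep 10 and 13 against 59 and 85. Both passed the floor of the table through the group where they are high. The wild-type means of Cd22, Anpep, Ifi207, Ms4a6c and Arhgap25 were 0.396, 0.368, 0.809, 0.777 and 0.704 CPM. These entries met the CPM limit only through the higher group, so their likeness is partly fixed by that limit. With 4 points per profile such a distance is a description of these libraries. Among the 4 genes themselves the distance ran from 0.573 between Lyz2 and Ms4a7 to 1.71 between Ms4a7 and Stab1.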

How the data were processed

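Retinal RNA was made into libraries with Illumina's TruSeq kit, as the labels' protocols state. The authors deposited a single table of estimated counts and FPKM per gene. The unit of the 4 count columns was read from the values, 80.257% to 82.398% of them whole. The submitters' processing notes name Bowtie 0.12.2, without its role. The counter, the annotation, the strand setting and the build of the counts were not given in the sources used here. FPKM, in 4 columns, was not used. No column matches a single sample, so columns were assigned to groups by the words WT and case. P-values therefore measure the spread between 2 libraries per group, which may be technical. Chi-square over degrees of freedom was 10.98 between the wild-type and 59.69 between the transgenic-labelled libraries, so neither pair differed by counting error alone. This does not tell whether the libraries of a pair came from separate animals.

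Counts were rounded and fitted for all 14572 entries with no expression filter, using edgeR 4.0.16 (TMM scaling, quasi-likelihood, two-sided, Benjamini-Hochberg at 0.05), with limma 3.58.1 and DESeq2 1.42.0 in R 4.3.3 as alternatives. SE is the log2 difference over the root of F. CPM uses TMM-scaled library sizes, and levels per kilobase use the longest GENCODE M21 transcript. On data simulated for this comparison over 14572 genes, edgeR called 86 of 100 genes changed 2-fold and 100 of 100 changed 4-fold. It also called 8 unchanged genes. The simulation gave each gene the fitted spread of its abundance level, not its own. These shares therefore need not hold for the real libraries, where edgeR called 1 entry.

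The genes and the 16 lists were chosen with earlier results of these data known. Of 222 listed genes 125 were measured. From each list the text draws on the 3 genes highest per kilobase and the 3 with the largest difference, and for each member on the 3 most alike. Some genes that this rule takes are not reported here. Csf1r, Ptprc, P2ry12, Tmem119, Spi1, Tyrp1, Pmel, Dct and Mlana are named for their role or after their values were seen. Promoter windows and gene coordinates are from RefSeq (GRCm38.p6).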

Additional observations from a re-analysis of the deposited data

How the results depend on the processing

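The log2 differences of Lyz2, Ms4a7, Cybb and Stab1 stayed positive under all 10 alternatives run for each. With limma on log2(CPM + 1), Ms4a7 was 1.32 and Cybb 1.49, and with a pseudocount of 0.1 Ms4a7 was 2.74; a larger pseudocount shrinks differences of low genes by construction. Leaving out each library in turn gave 2.33 to 2.81 for Lyz2, 3.07 to 3.28 for Ms4a7, 1.92 to 2.13 for Cybb and 1.12 to 1.36 for Stab1. The number of genes called over all entries was 1 in edgeR, 87 with the DESeq2 Wald test, 2 with limma on log2(CPM + 1), 0 with total counts only, and 21 to 4177 leaving out single libraries, with 4177 without TP-1040, 80 without P1033, 37 without TP-1036 and 21 without P1041. Genes of the lists called were 0, 17 with DESeq2, and 5 to 63 leaving out single libraries. Entries at least 2-fold apart without overlap numbered 217, and 148 to 797 leaving out single libraries, with 344 without P1033 and 797 without TP-1040. The medians of neutrophil and red blood cell genes turned negative, to -0.33 and -0.74, without TP-1036. The causes were not tested. No paired analysis was possible because the columns carry no replicate number of the labels. At 7 reads in each wild-type library, depth limits the fold of Ms4a7 most.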
